A study of Homo sapiens with 3 samples.

Results

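The replication-dependent histone genes are the genes, mostly in clusters on chromosomes 6 and 1, that supply the bulk of the histone protein made while DNA is copied. They were taken here as all protein-coding genes whose current symbol is H1-1 to H1-6 or begins with H2AC, H2BC, H3C or H4C followed by a number. This gave 70 of the 60554 genes in the table, of which 6 encode linker histone H1, 17 encode H2A, 19 encode H2B, 13 encode H3 and 15 encode H4. A further 13 histone pseudogenes were left out. At least 1 count was present for 62 of the 70 genes, and 31 passed the filter on low counts. The other 39 genes enter the sums only, and 8 genes (H2AC1, H2AC7, H2BC1, H2BC10, H3C3, H3C4, H4C6 and H4C7) had 0 counts in every library. A count of 0 allows up to 0.195 CPM (the count scaled to the size of its library) in the control and 0.197 and 0.172 CPM in the other libraries, taking 3 counts as the limit. This limit is not safe for H3C4 and H2AC7, of whose exons 100% and 98.0% lie within exons of another gene on the same strand.

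RNA was sequenced from 3 stable lines of KYSE30, a cell line established from a human squamous carcinoma of the esophagus, with 1 library each. The control line is k30-PlkoB, whose genotype label is "vector" although the protocol names a scrambled non-targeting shRNA. The lines k30-shSNORD12B-1 and k30-shSNORD12B-2, whose libraries are called by the labels sh1 and sh2, carry different shRNAs against SNORD12B, a small nucleolar RNA of the box C/D class. All 3 lines were grown with serum, incubated with lentivirus for 24 hours and put under blasticidin (5 ug/mL) for 2 weeks, and each is a selected population with no replicate culture. The comparison asks how the histone genes stand when SNORD12B is targeted.

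Library totals came to 15473922 (control), 15146805 (labelled sh1) and 17336936 (labelled sh2) counts. SNORD12B itself was counted 7, 15 and 1 times in that order, so the count in the library labelled sh1 goes against its label and knockdown is unchecked at this depth. KRT8 (4366, 4335 and 4340 CPM in the same order) and KRT18, keratins of simple epithelia, were abundant in every library, and the squamous lineage factor TP63 stood at 157, 80.6 and 135 CPM. KRT5, a defining basal keratin, had 1, 3 and 2 counts. Of 16 markers of fibroblast, endothelial, immune and neural cells, 4 (COL1A2, DCN, NEFM and NEFL) were at 0 in every library and 13 stayed under 3 CPM in all of them. The exceptions were the neurofilament gene INA, at 170, 220 and 159 CPM, COL1A1, at 15.9, 9.34 and 13.2 CPM, and CDH5, at 2.60, 0.855 and 5.23 CPM. Of 15 tested squamous and epithelial markers, 12 were higher with the label sh2 than with the label sh1 (median log2 ratio 0.74), among them SOX2 (104, 12.2 and 38.9 CPM), and their part in the histone levels was not tested.

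Nucleosomes wrap DNA around a core of H2A, H2B, H3 and H4, and H1 binds the linker DNA between them. The mRNAs of these genes accumulate in S phase and end in a conserved stem-loop in place of a poly(A) tail. The stem-loop is bound by SLBP, and the U7 small nuclear ribonucleoprotein guides the cut just after it. Some of the genes can also give longer, polyadenylated transcripts that run past the stem-loop.

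The stem-loop and its surroundings are shown for some of the members that carry many of the counts, because its position in the annotated transcript differs between members. The sequences are from the GENCODE 29 transcripts, read 5′ to 3′, with the 6-base stems and the 4-base loop in capitals.
H2AC6: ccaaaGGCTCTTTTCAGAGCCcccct
H2AC25: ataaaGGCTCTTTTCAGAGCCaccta
H2BC21: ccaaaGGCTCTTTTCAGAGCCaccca
H2BC5: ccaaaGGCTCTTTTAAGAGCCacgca
H3C6: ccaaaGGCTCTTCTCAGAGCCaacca
H3C10: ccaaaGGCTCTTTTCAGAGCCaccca
The pattern GGCTCTNNNNAGAGCC, searched on the transcript strand, was found in the models of 22 members (31.4%), against 41 of 19684 protein-coding genes as a whole (0.208%). Only 3 versions of its 16 bases occurred among the members. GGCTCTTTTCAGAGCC was in 17 members, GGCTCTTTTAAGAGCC in 4, and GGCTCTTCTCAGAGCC in H3C6 alone. The models of the other 48 members, which include every H1 and H4 gene, do not hold the pattern. The stem letters were fixed, so a stem-loop with other stem letters would not be found. Nor would one be found where the annotated model ends before it. The shares therefore describe the annotated models and not whether the genes have a stem-loop. The models without the pattern differ in length. Those of H2BC12 and H1-2 are 381 and 642 nucleotides (nt) long, and those of H4C9 and H2AC11 are 1294 and 2250 nt long.

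In 16 of the 22 members the annotated transcript went on for at least 100 nt past the stem-loop, with a median over the 22 members of 750.5 nt. The extension was 1128 nt in H2AC6, 1729 nt in H2BC21, 1862 nt in H3C6 and 769 nt in H3C10. The shortest shown is the H2BC5 transcript, where 39 nt follow the stem-loop, although the gene's joined exons reach 871 nt. These 16 members had 2889 counts in the control, 1494 in the library labelled sh1 and 5406 in the library labelled sh2. The 6 members with a stem-loop nearer to the end had 662, 349 and 1188 counts. Those without the pattern had 3813, 2239 and 5111 counts. All 3 groups made by this search were thus lowest in the library labelled sh1 and highest in the library labelled sh2.

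The RNA level of the histone genes as a group moved in opposite directions in the libraries labelled sh1 and sh2. Together they took 7364 counts in the control, 4082 with the label sh1 and 11705 with the label sh2. As shares of all counts these are 0.0476%, 0.0269% and 0.0675%. After scaling, the control had 479 CPM, the library labelled sh1 268 CPM and that labelled sh2 673 CPM, with exact Poisson intervals (95%) of 468.5 to 490.5, 260.2 to 277 and 661 to 685. Relative to the control the sum was 0.56 times as high with the label sh1 (exact interval 0.539 to 0.582) and 1.40 times as high with the label sh2 (1.36 to 1.45). Between the libraries labelled sh2 and sh1 the sums differed 2.51-fold (2.42 to 2.60). These intervals cover counting error only, since no line had a second culture.

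Averaged over the pair, the shRNA lines did not stand apart from the control. Their summed level was 470.7 ± 286 CPM (SD, n = 2) against 479 CPM, a log2 difference of -0.03. In the quasi-likelihood F test of edgeR on all 17801 genes tested, 0 of the 31 histone genes passed an adjusted p of 0.05, and 0 had an unadjusted p under 0.05. Over all genes, 0.0% passed the adjusted threshold and 1.33% had an unadjusted p under 0.05. The lowest unadjusted p of a histone gene was 0.169, for H2AC19, with an adjusted p of 1.00. Limma-voom and the likelihood ratio test of edgeR also called 0 of 31, and DESeq2 called 0 of the 27 to which it gave an adjusted p. Over all genes these tools called 0.00562%, 0.213% and 0.0933%, so few that the counts of 0 say nothing particular about the histone genes. These p-values rest on the spread between the libraries labelled sh1 and sh2, moderated by that of other genes, with the single control library taken to vary as they do. In the quasi-likelihood test, 8.35 prior degrees of freedom drawn from all genes tested were added to the 1 residual degree of freedom. All other values given below are descriptions of single libraries, without a test.

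Gene by gene, 30 of the 31 histone genes that passed the filter were below the control in the library labelled sh1, where 48.5% of all tested genes were below it. In the library labelled sh2, 25 of the 31 were above the control and 6 below it, against 49.7% and 50.3% of all tested genes. Both held together for 24 of the 31 members and for 21.5% of all tested genes. All 31 were higher and 0 lower with the label sh2 than with the label sh1, against 49.9% and 50.1% of all tested genes. The median log2 ratio of the members was -0.81 for the label sh1 over the control, 0.61 for the label sh2 over the control and 1.42 between those libraries. The same medians over all tested genes were 0.01, -0.0022 and -0.00089.

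Differences of 2-fold or more were mostly found between the shRNA libraries. With the label sh1, 12 members were at least 2-fold below the control and 0 at least 2-fold above it, against 5.58% and 3.74% of all tested genes. With the label sh2, 2 members (H2AC13 and H2AC20) were at least 2-fold above and 1 (H2AC19) at least 2-fold below the control, against 2.98% and 3.46%. From the library labelled sh1 to that labelled sh2, 22 members were higher by 2-fold or more and 0 lower by as much, against 6.61% and 5.54%. Only 6 members lay under the control with both labels, as did 27.0% of all tested genes, and only H2AC20 lay above it with both, as did 28.2%. Counting error alone left few of these orders uncertain between the shRNA libraries: of the 30 members with at least 30 counts, 27 had an exact interval of that ratio above 1, and 3 had one that held 1. Against the control, the interval lay below 1 for 24 members with the label sh1. With the label sh2 it lay above 1 for 15 members, held 1 for 14 and lay below 1 for 1.

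**Figure D1:**
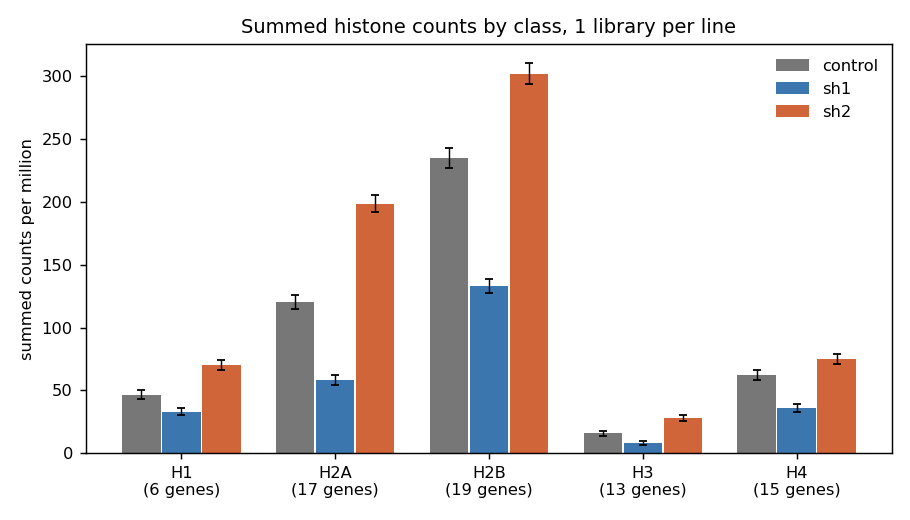
Summed CPM (vertical axis) of the H1, H2A, H2B, H3 and H4 genes in the control and the libraries labelled sh1 and sh2, with 95% exact Poisson intervals as error bars. In each of the 5 classes the bar labelled sh1 is the lowest and that labelled sh2 the highest; bar heights are not scaled by gene length and are not to be compared between classes.

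All 5 classes had the same order of libraries. Linker histone genes summed to 46.5, 33.3 and 70.0 CPM, in the order control, label sh1, label sh2. The H2A genes summed to 120.1, 58.0 and 198 CPM, and the H2B genes to 235, 133 and 302 CPM. The H3 genes summed to 16.0, 8.42 and 28.1 CPM, and the H4 genes to 62.0, 35.8 and 74.9 CPM. The intervals of these sums did not overlap between libraries in any class, as the bar chart of class sums shows.

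The size of the difference in the class sums was not the same, beyond counting error, but single genes weigh on the sums. H2A had the widest, with 3.42-fold (exact interval 3.18 to 3.69) between the libraries labelled sh2 and sh1, and H3 had 3.33-fold (2.74 to 4.08). The H2A sum leaned on H2AC6, which held 63.2% of its counts in the control and differed 4.23-fold (3.83 to 4.68). The next H2A genes by counts, H2AC25 and H2AC11, differed 2.24-fold (1.92 to 2.63) and 2.86-fold (2.31 to 3.56). H2B, H1 and H4 differed 2.27-fold (2.15 to 2.39), 2.10-fold (1.90 to 2.34) and 2.09-fold (1.89 to 2.32). With the label sh2 the ratio to the control ran from 1.21 in H4 (1.11 to 1.32) to 1.75 in H3 (1.50 to 2.05). With the label sh1 it ran from 0.483 in H2A (0.445 to 0.5235) to 0.715 in H1 (0.637 to 0.802). The summed H2B counts were 1.95 times the summed H2A counts in the control, 2.29 times with the label sh1 and 1.52 times with the label sh2.

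**Figure D2:**
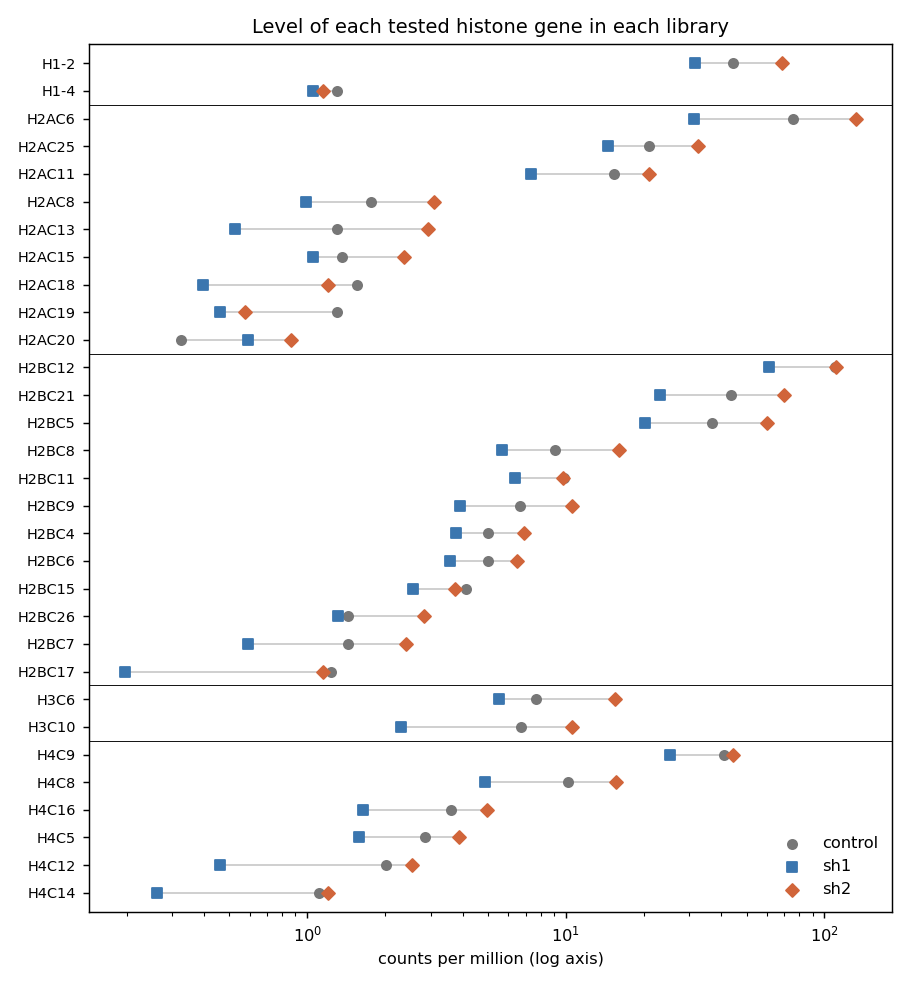
CPM on a log axis of the 31 histone genes that passed the filter, grouped by class, with 1 point for each library. The square (sh1) lies left of the circle (control) for every gene but H2AC20, and left of the diamond (sh2) for all 31; the diamond covers the circle at H2BC12 and H2BC11.

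A few genes supplied most of the histone counts. The 6 members with the most counts (H2BC12, H2AC6, H1-2, H2BC21, H2BC5 and H4C9) held 73.2% of them in the control, 71.8% with the label sh1 and 72.3% with the label sh2. Per kilobase of annotated exon, the mean over the 3 libraries was highest for H2BC12 at 246 CPM per kb, followed by H1-2 at 75.1, H2AC6 at 47.9, H2BC5 at 44.8 and H4C9 at 28.5 CPM per kb. At the other end, 27 members had fewer than 10 counts in all 3 libraries together. The 40 members with under 30 counts summed to 86, 72 and 127 counts, and the interval of their ratio between each shRNA library and the control held 1. The plot of member levels shows how widely the genes of each class are spread.

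Among linker histones, H1-2 (chr6:26055787-26056428, minus strand of hg38, 1 exon) accounted for 95.2% of H1 counts in the control (Wilson 95% interval 93.4 to 96.6). It was counted 681 times in the control, 481 times with the label sh1 and 1195 times with the label sh2. The library labelled sh2 was thus the highest, and its ratio to the library labelled sh1 was 2.17 (1.95 to 2.42). H1-4 is the only other H1 gene that passed the filter, with 20, 16 and 20 counts. Its ratio between the shRNA libraries was 1.09 (0.538 to 2.26), an order that cannot be read at this depth. H1-5 (6, 6 and 2 counts), H1-6 (4, 0 and 1), H1-1 (1, 3 and 0) and H1-3 (3, 0 and 0) had few counts. In none of them was the library labelled sh2 the highest.

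In the H2A class, H2AC6 (chr6:26124145-26139116, plus strand, formerly HIST1H2AC) led with 1166, 476 and 2304 counts, in the order control, label sh1, label sh2. Its ratio between the shRNA libraries, 4.23 (3.83 to 4.68), was wider than that of each of the other 5 members named above for the most counts. H2AC6 made up 63.2% of H2A counts in the control (61.0 to 65.4), 54.0% (50.7 to 57.2) with the label sh1 and 66.8% (65.2 to 68.3) with the label sh2. H2AC25, in the smaller chromosome 1 cluster, had 321, 221 and 567 counts, and H2AC11 had 235, 112 and 366 counts. Both kept the order of the class. H2AC13 had 20, 8 and 51 counts, the highest ratio of a member with at least 30 counts in the library labelled sh2 to the control, at 2.25 (1.32 to 3.99) or 1.10 on the log2 scale of log-CPM with a prior count of 2. H2AC8 (27, 15 and 54 counts) and H2AC15 (21, 16 and 41 counts) followed the class as well.

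Of the 9 H2A genes that passed the filter, 3 departed from the order of the class. H2AC19 had 20, 7 and 10 counts and H2AC18 had 24, 6 and 21 counts. These neighbouring genes on chromosome 1 share 97.1% or more of their 50-nt windows, so their reads cannot be assigned to one or the other with certainty. H2AC20, with 5, 9 and 15 counts, was the one member of the 31 that passed the filter to lie above the control in the library labelled sh1, at a ratio of 1.82 (0.547 to 6.91) whose interval held 1. The library labelled sh1 was thus below the control in H2AC18 and H2AC19 and not separable from it in H2AC20.

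Among H2B genes, H2BC12 (chr6:27146418-27146798, minus strand, formerly HIST1H2BK) had 1682 counts in the control, 930 with the label sh1 and 1930 with the label sh2. After scaling, the control and the library labelled sh2 were at 109 and 111 CPM, a ratio of 1.01 (0.949 to 1.08), whereas the library labelled sh1 was lower at 61.2 CPM, a ratio of 0.559 (0.515 to 0.605). The difference of H2BC12 with the label sh1 was thus beyond counting error, and that with the label sh2 was not. Because it holds 46.6% of H2B counts in the control (45.0 to 48.3), it weighs on the class sum: the log2 ratio of the H2B sum for the label sh2 over the control was 0.36 with H2BC12 and 0.61 without it.

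H2BC21 (chr1:149842204-149886652, minus strand, formerly HIST2H2BE) had 669, 351 and 1218 counts, and H2BC5 (chr6:26158146-26171349, plus strand, formerly HIST1H2BD) had 564, 309 and 1044 counts. In both genes the library labelled sh2 stood about as far above the control, at ratios of 1.61 (1.46 to 1.77) and 1.64 (1.47 to 1.81), as in H2AC6, at 1.75 (1.63 to 1.87). H2BC8 had 140, 86 and 280 counts, H2BC9 had 102, 59 and 184, and H2BC4 had 77, 57 and 120. H2BC6 (77, 54 and 113 counts) and H2BC7 (22, 9 and 42 counts) had the order of the class too. H2BC26, in the smaller chromosome 1 cluster, had 22, 20 and 49 counts, the log2 ratio nearest to 0 for the label sh1 over the control (-0.11) among members with at least 30 counts and one of the 3 highest for the label sh2 (0.92). H2BC17 had 19, 3 and 20 counts, the lowest log2 ratio for the label sh1 (-2.08), and rests on few counts. H2BC11 (151, 97 and 170 counts), H2BC15 (63, 39 and 65) and H2BC17 fell just short of the control in the library labelled sh2 after scaling, each with an interval that held 1.

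Few counts fell on the H3 genes. H3C6 (chr6:26224199-26227473, plus strand, formerly HIST1H3E) had 118, 84 and 269 counts, and H3C10 (chr6:27810064-27811300, plus strand, formerly HIST1H3H) had 103, 35 and 183 counts. The higher level with the label sh2 was shared by both, at 2.01 times the control (1.62 to 2.52) and 1.57 times (1.23 to 2.02). The lower level with the label sh1 was further from the control in H3C10, at 0.343 (0.227 to 0.508), than in H3C6, at 0.719 (0.537 to 0.959). H3C2, the next gene of the class per kilobase, had 7, 1 and 10 counts, and the other H3 genes had 8 counts or fewer in any library.

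H4 genes followed with H4C9 (chr6:27138588-27139881, plus strand, formerly HIST1H4I) in front, at 630, 385 and 771 counts. Like H2BC12, its neighbour, H4C9 hardly differed between the control and the library labelled sh2, at a ratio of 1.08 (0.972 to 1.20). H4C8 had 157, 74 and 273 counts, and its ratio for the label sh2 was 1.54 (1.26 to 1.88). H4C12 had 31, 7 and 44 counts, a log2 ratio of -1.87 for the label sh1, and shares all its 50-nt windows with other genes, chiefly H4C11. H4C5 (44, 24 and 67 counts), H4C14 (17, 4 and 21) and H4C16 (55, 25 and 86) had the same order. H4C1, with 0, 9 and 3 counts, did not.

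**Figure D3:**
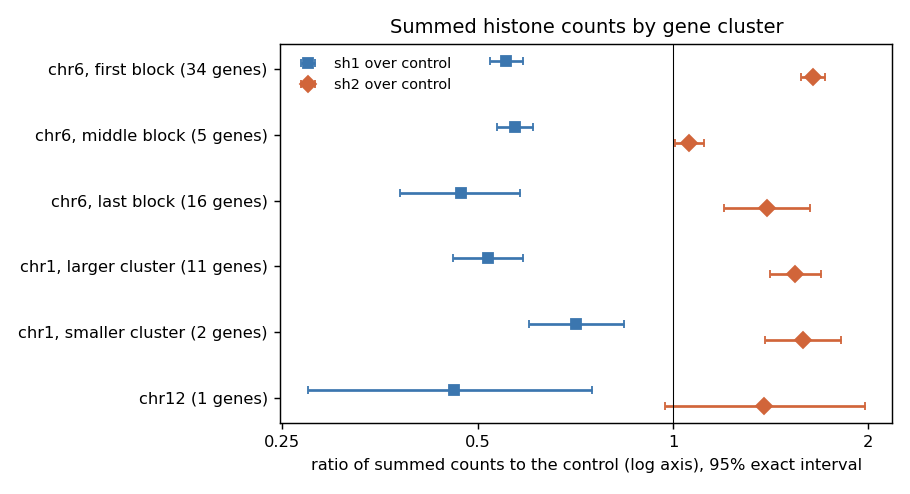
Ratio of summed histone counts in each shRNA library to the control (log axis, bars are 95% exact conditional intervals), by genomic cluster. The squares (sh1) lie left of 1 in all 6 clusters; the diamonds (sh2) lie right of it, least in the middle block of chromosome 6 at 1.06.

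The sums were also taken by genomic position. On chromosome 6 the members form 3 blocks of hg38: the first (chr6:25726132-26285638) with 34 genes, the middle (chr6:27125897-27147515) with 5 and the last (chr6:27807444-27893843) with 16. Chromosome 1 holds a larger cluster (chr1:149782689-149887916) of 11 genes and a smaller one (chr1:228456979-228460470) of 2. H4C16 lies alone on chromosome 12, and H2BC12L, with 3, 2 and 0 counts, alone on chromosome 21.

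With the label sh1 the ratio to the control was 0.554 (0.522 to 0.587) in the first block, 0.571 (0.536 to 0.608) in the middle block and 0.471 (0.380 to 0.581) in the last. In the library labelled sh2 it was 1.64 (1.57 to 1.71), 1.06 (1.01 to 1.12) and 1.39 (1.20 to 1.625). The middle block, which holds H2BC11, H2AC11, H4C9, H2BC12 and H2AC12, was thus close to the control in that library, and its interval did not overlap those of the first and last blocks. Most of its counts are from H2BC12 (1682 of 2698 in the control) and H4C9 (630), whose ratios were 1.01 and 1.08. H2BC11 stood at 0.994 (0.794 to 1.25). Of the 4 tested genes of the block only H2AC11 had an interval above 1, at 1.38 (1.16 to 1.63), near the last block. The larger chromosome 1 cluster stood at 0.518 (0.457 to 0.587) and 1.54 (1.41 to 1.69), the smaller one at 0.710 (0.599 to 0.839) and 1.59 (1.39 to 1.815), and H4C16 at 0.459 (0.274 to 0.749) and 1.38 (0.973 to 1.97). The plot of cluster ratios sets these side by side.

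H2A and H2B genes often lie head to head, and 12 such pairs were found with coding starts 304 to 382 nt apart. Counts, not scaled by length, differed widely within some of the pairs. H2AC6 had 1166, 476 and 2304 counts where its partner H2BC4 had 77, 57 and 120, and H2BC12 had 1682, 930 and 1930 where H2AC12 had 0, 1 and 0. H2BC21 (669, 351 and 1218 counts) is paired with H2AC20 (5, 9 and 15 counts). H2AC25 (321, 221 and 567 counts) is paired with H2BC26 (22, 20 and 49 counts). In these pairs, except for H2AC12, each partner had its highest count with the label sh2. Other pairs were closer in counts, such as H2BC11 (151, 97 and 170 counts) with H2AC11 (235, 112 and 366 counts). H2AC1 and its partner H2BC1 had 0 counts in every library.

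Promoter sequence is shown for the leading member of each class, with H3C6 for H3, because these promoters hold different elements. Each line gives the 250 bases before the RefSeq transcription start (GRCh38.p14), read 5′ to 3′ on the gene's strand, with 4 motifs in capitals on either strand: the octamer ATTTGCAT, the TATA box as TATAAA, the CCAAT box by those letters, and the H1 box AAACACA. In H2BC12 4 bases belong to a pair of overlapping TATAAA matches. The windows are chr6:26056471-26056720 (minus strand) for H1-2, chr6:26123922-26124171 (plus) for H2AC6 and chr6:27146856-27147105 (minus) for H2BC12. For H3C6 and H4C9 they are chr6:26224885-26225134 (plus) and chr6:27139032-27139281 (plus). The H4C9 window lies within the counted exon of that gene (chr6:27138588-27139881). The H3C6 window lies within the span of its counted model (chr6:26224199-26227473), and the H2AC6 window runs past the start of its counted model (26124145).
H1-2: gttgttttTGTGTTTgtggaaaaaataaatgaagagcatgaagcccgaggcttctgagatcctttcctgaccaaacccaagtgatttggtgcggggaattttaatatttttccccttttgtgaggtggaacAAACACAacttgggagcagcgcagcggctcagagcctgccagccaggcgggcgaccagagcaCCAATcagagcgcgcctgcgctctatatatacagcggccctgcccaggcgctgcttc
H2AC6: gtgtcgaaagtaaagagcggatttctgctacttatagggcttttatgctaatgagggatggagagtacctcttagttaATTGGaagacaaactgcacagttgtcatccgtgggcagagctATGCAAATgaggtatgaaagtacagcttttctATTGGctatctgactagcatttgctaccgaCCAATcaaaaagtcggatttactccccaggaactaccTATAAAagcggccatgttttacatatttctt
H2BC12: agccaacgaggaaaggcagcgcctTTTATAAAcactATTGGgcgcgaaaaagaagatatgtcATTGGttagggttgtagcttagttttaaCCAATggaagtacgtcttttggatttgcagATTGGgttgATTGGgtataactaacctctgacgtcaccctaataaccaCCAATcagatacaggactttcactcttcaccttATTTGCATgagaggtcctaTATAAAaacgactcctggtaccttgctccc
H3C6: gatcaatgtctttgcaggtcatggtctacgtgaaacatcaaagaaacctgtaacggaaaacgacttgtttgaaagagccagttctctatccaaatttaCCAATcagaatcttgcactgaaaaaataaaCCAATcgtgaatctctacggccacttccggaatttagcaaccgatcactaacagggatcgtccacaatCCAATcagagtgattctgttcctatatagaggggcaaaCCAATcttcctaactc
H4C9: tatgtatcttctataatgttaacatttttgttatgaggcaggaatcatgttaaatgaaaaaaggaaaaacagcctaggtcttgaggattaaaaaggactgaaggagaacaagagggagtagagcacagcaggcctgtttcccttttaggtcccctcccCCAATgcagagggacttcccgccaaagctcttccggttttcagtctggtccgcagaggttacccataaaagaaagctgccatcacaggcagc
The octamer, a binding site of POU2F1 known from H2B promoters, was in the windows of H2AC6 and H2BC12 only among these 5. Shares were counted over the full RefSeq windows of 300 bases, which reach 50 bases past the start and were matched for 64 of the 70 members. The octamer was in 25 of 64 (39.1%), against 1.77% of all 35116 windows, with 11 of 16 for H2A, 14 of 18 for H2B and 0 for H1, H3 and H4. Windows of head-to-head H2A and H2B genes can overlap, as in H2AC6 (chr6:26123922-26124221) and H2BC4 (chr6:26123877-26124176). The same motif is then counted for both genes, so the shares of H2A and H2B are not separate counts. CCAAT was in 54 of 64 (84.4% against 34.6% of all windows), which left out most H4 genes, where it was in 3 of 13. TATAAA was in 42 of 64 (65.6% against 11.5%). The H1 box was in all 6 H1 windows and in 14.1% of member windows, against 5.64% of all. H2A and H2B also hold members without the octamer, such as H2AC25 and H2BC5. The part of the promoter motifs in the differences between libraries was not tested.

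Annotated length divided the members in another way. With a split at 800 nt of joined exons, 45 members are compact and 25 extended. The compact members summed to 170 CPM in the control, 102 CPM with the label sh1 and 201 CPM with the label sh2. The extended members summed to 309 CPM, 166 CPM and 472 CPM. The ratio between the shRNA libraries was 1.97 (1.85 to 2.09) for compact and 2.84 (2.71 to 2.97) for extended members, and these intervals did not overlap.

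Most of the compact sum is H2BC12 and H1-2. The other 43 compact members had a median of 7 counts over the 3 libraries together and at most 96, where the extended members had a median of 254. Without those 2 genes the compact sum was 16.3, 9.21 and 21.0 CPM, a ratio between the shRNA libraries of 2.29 (1.88 to 2.80). That ratio is still below the one of the extended members, but it rests on few counts (251, 140 and 366) and its interval overlaps theirs. How the libraries were prepared is not stated in the labels, whose molecule field reads total RNA. Other RNAs without a poly(A) tail were nearly undetected: 17 of them, among them RMRP, TERC and RN7SL1, had 18, 17 and 13 counts in all, and 10 were at 0 in every library. RN7SK was listed with them but was not found by name, so its level is unknown. Whether the counts of the histone genes come from transcripts with a poly(A) tail was not tested.

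Sequence sharing bears on which member a read is given to. In 17 members at least 50% of the 50-nt windows of the exons also occur in another annotated gene, and in 29 none do. The 13 pseudogenes left out had 377, 250 and 476 counts in all, in the same order as the members. H3C14 with H3C15 and H4C14 with H4C15 are nearly identical, and 74.1% of the H2BC12 windows occur elsewhere. Among the 24 tested members with less than 50% of their windows shared, 23 were below the control with the label sh1, 20 above it with the label sh2, and 24 higher with the label sh2 than with the label sh1. Their median log2 ratios were -0.72, 0.63 and 1.44. Exons of 10 members overlap exons of another gene on the same strand, as in H3C4 (100%), H2AC7 (98.0%) and H2AC17 (88.0%), so their counts are uncertain. Exons of 22 members overlap exons on the opposite strand, and H2AC15 lies wholly opposite to H2BC15. Reads were counted by strand (option 1), so this overlap makes counts uncertain only where strand was not kept, which was not checked. Without the 22 members with opposite-strand overlap, the sum was 0.581 times the control with the label sh1 and 1.33 times with the label sh2, and 2.29-fold apart between those libraries.

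The machinery that reads the stem-loop and transcribes the genes did not follow the histone genes. Lists of such genes, put together with earlier results of these data known, are described here by counts and medians. SLBP, the stem-loop binding protein, had 1358 counts in the control, 1763 with the label sh1 and 1069 with the label sh2, so the library with the fewest histone counts had the most SLBP counts. NPAT, the coactivator of histone gene transcription, had 167, 279 and 208 counts, and CASP8AP2, a partner in histone locus bodies, had 355, 613 and 425. For the U7 particle, LSM10 had 475, 485 and 424 counts, LSM11 had 275, 280 and 272, and ZNF473, its zinc finger partner, had 347, 325 and 369. Of 25 genes of histone mRNA processing and decay, 21 were lower in the library labelled sh2 than in that labelled sh1, with a median log2 ratio of -0.36. The widest was SRRT, which acts with the cap-binding complex, at 1755, 2349 and 1109 counts and a log2 ratio of -1.27. UPF1, SNRPB and NCBP2, the highest of the list in CPM, had log2 ratios of -0.17, -0.28 and -0.23.

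Among 18 genes that regulate histone gene transcription, 16 were lower with the label sh2 than with the label sh1, with a median of -0.26. CDC25A, an activating phosphatase of CDK2, had 548, 675 and 235 counts, E2F1 had 526, 857 and 323, and cyclin E gene CCNE1 had 191, 191 and 85. The coactivator CREBBP, with 1911, 2334 and 3022 counts, was one of the 2 exceptions. POU2F1, the octamer factor, and HINFP, the H4 promoter factor, were singled out after their values were seen, for the promoters shown above. They had 57.4, 69.8 and 63.6 CPM and 12.8, 13.1 and 12.4 CPM. Histone chaperones were lower as well in 20 of 22 tested genes, with a median of -0.36, among them both subunits of the replication-coupled assembly factor, CHAF1A (1347, 1337 and 853 counts) and CHAF1B (477, 527 and 321).

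**Figure D4:**
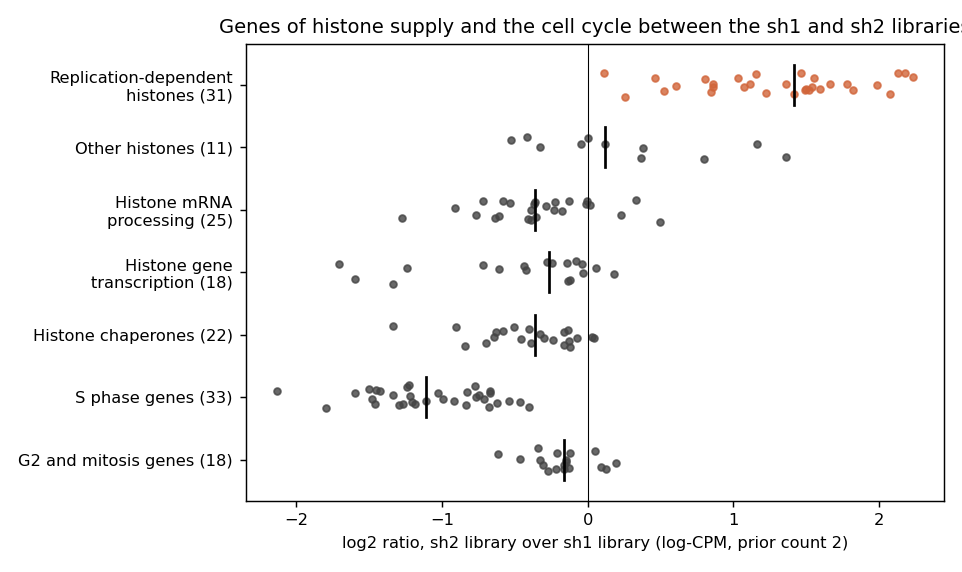
Log2 ratio of the library labelled sh2 to that labelled sh1 (horizontal axis, log-CPM with a prior count of 2) for each tested gene of 7 groups, with vertical bars at the medians; vertical scatter within a row has no meaning. All 31 histone genes lie right of 0 and all 33 S phase genes left of it.

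Genes of DNA replication stood in the opposite order to the histone genes. All 33 S phase genes listed were lower with the label sh2 than with the label sh1 and lower than the control in the library labelled sh2, and 29 were above the control in the library labelled sh1. Their median log2 ratio between the shRNA libraries was -1.11. They summed to 3365 CPM in the control, 3823 CPM with the label sh1 and 1801 CPM with the label sh2. The replicative helicase gene MCM4 had 6408, 6448 and 2685 counts, and MCM10, which acts at origin firing, had 535, 830 and 215, the widest log2 ratio of the list at -2.13. The plot of gene groups shows that the ranges of the histone and S phase genes do not overlap. Genes of G2 and mitosis differed little between the shRNA libraries, with a median of -0.16 and 14 of 18 lower with the label sh2. Their sum was 1.23 times the control with the label sh1, where 17 of the 18 were above it. With the label sh2 it was 1.10 times the control, with 12 above it and 6 below. The part of these cell cycle differences in the histone levels was not tested.

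Histone genes outside the replication-dependent clusters were divided. H1-10, a linker histone gene, had 2059, 1376 and 3530 counts, with the order of H1-2. H2AZ1, whose product replaces H2A at promoters, had 4720, 5472 and 4335 counts and macroH2A gene MACROH2A1 had 5967, 6929 and 6330, the opposite order after scaling. H3-3B, which encodes the replication-independent H3.3 and had the highest CPM of the list, had 13016, 14723 and 18266 counts. In all, 7 of 11 tested genes were higher with the label sh2 than with the label sh1, with a median log2 ratio of 0.12. MACROH2A2, at 58, 19 and 29 counts, stood under the control with both labels.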

How the data were processed

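One deposited table gives unnormalized counts of each gene in 3 libraries, assigned by the authors with featureCounts 1.6.4 to genes of an hg38 annotation (stated in the file headers, as are strand option 1 and the counting of primary alignments). Thus a read that fits several near-identical histone genes is given to one of them. TopHat2, HTSeq and hg19 are named in the submitters' processing notes instead. Start and end matched GENCODE 29 for all 52179 identifiers of equal version, which places coordinates in hg38.

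Of the members, 66 were named by a gene name table and 4 through a RefSeq synonym. The software was R 4.3.3, edgeR 4.0.16, DESeq2 1.42.0 and limma 3.58.1. Genes that passed filterByExpr (17801) were scaled by TMM (factors 0.993, 1.004 and 1.003). For the pair of shRNA lines against the control, the two-sided quasi-likelihood F test of edgeR was used (1 residual and 8.35 prior degrees of freedom). Its p-values were adjusted by Benjamini-Hochberg, with a threshold of 0.05. Intervals for ratios between single libraries are exact conditional ones at 95%. Log2 ratios of genes, and their medians, are differences of log-CPM (prior count 2). Depth ran from 15146805 to 17336936 counts. Alternatives covered scaling, filter, tool, prior count, members left out and the length split.

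Named histone genes were the 3 highest per class in CPM per kb, the 3 highest and 3 lowest log2 ratios of each shRNA library among members with at least 30 counts, called members and those opposite to their class sum. In other lists they were the 3 highest in CPM, up to 3 of the largest log2 ratios, and SLBP, NPAT, CASP8AP2, LSM10, LSM11 and ZNF473. The members and lists were chosen with earlier results of these data known. Motifs and the stem-loop were searched as exact letters in RefSeq promoter windows and GENCODE 29 transcripts.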

Additional observations from a re-analysis of the deposited data

How the results depend on the processing

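No paired analysis was possible because the control is 1 library whose label carries no replicate number (its number 1 here only names it). Under every tool, filter and scaling tried, 0 histone genes were called, where 0 to 41 of all genes tested were. At an unadjusted p under 0.05 there was 1, H4C1, when every gene with a count entered, and 0 otherwise. Leaving out each shRNA line in turn gave 1 library against 1, with no test, and a log2 ratio of summed counts of the remaining line to the control from -0.84 to 0.49, with medians from -0.81 to 0.61. Of 162 alternative values of sums, medians and counts, 129 stayed within the limits of the main value, 33 did not and 0 were labelled reversed. The values with 1 shRNA line left out are among them, with the SD between the shRNA lines as their limit. They fell within it nearly by construction and could not be labelled reversed. The remaining lines nevertheless stood on either side of the pair's own values, -0.03 for the sum and 0.01 for the median. Of 180 values of single members 1 had another sign. Leaving out H2BC12 gave log2 ratios of the label sh2 over the control of 0.60 for all members, 0.61 for H2B and 0.56 for compact members, ratios of the label sh2 over sh1 of 1.44, 1.41 and 1.14, and -0.57 for compact members with the label sh1. Leaving out members that overlap exons on the opposite strand gave, for the label sh2 over the control, 0.41 for all members, 0.47 for H2A, 0.55 for extended members and a median of 0.53, and over the label sh1, 1.19, 1.51, 1.37 and a median of 1.48. A split at 600 nt gave compact members -0.85 with the label sh1 and 0.077 with the label sh2, and one at 1000 nt gave them 0.35 over the control and 1.08 over the label sh1, with 1.58 for extended members. The setting without H2BC12 and H1-2, chosen after seeing the data, gave 0.36 and 1.19. When every gene with a count entered (62 members), 1 member was at least 2-fold higher and 19 lower with the label sh1 (median -0.62), 7 and 7 with the label sh2 (0.38), and 4 were lower between the shRNA libraries (0.86). With a mean of at least 1 CPM (27 members), 1 was higher and 0 lower with the label sh2. A prior count of 0.5 gave a median of 1.48 between the shRNA libraries. For changes from leaving out members or the filter, fewer or more genes enter by construction, and the cause was otherwise not tested. Few counts limit most members: 40 had under 30 in all.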
